A study of Mus musculus with 6 samples.

Results

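The genes described here are 7 Toll-like receptors (Tlr1, Tlr2, Tlr3, Tlr4, Tlr7, Tlr9 and Tlr13), the co-receptor Cd14, the chaperone Unc93b1 and the adaptor Myd88, 10 of the 31053 genes of the count matrix, chosen by symbol from a list. Their raw UMI counts (UMIs are unique molecular identifiers, which count each captured transcript once) were read across groups of cells that were gated on marker genes, none of which is a member. All 10 were found in more than 3 cells. The study sequenced single CD45+ cells, isolated by Percoll gradient and flow sorting from the right, tumor-bearing hemisphere of female SCID mice, on the 10x Chromium 3′ platform. SCID mice lack T and B lymphocytes but keep innate immune cells. U87, an established human glioma line, was implanted at 50000 cells a mouse. In 3 mice (IL33) the U87 cells expressed IL-33 and the animals were taken at 3 weeks, and in 3 mice (pcDNA) the cells carried the empty vector pcDNA 3.1 and the animals were taken at 6 weeks. The mice were 8 weeks old at implantation by the protocol, and the labels also give an age of 6 to 8 weeks. The time of sampling and the expression of IL-33 therefore cannot be told apart. The deposited matrix pools the 6 libraries, marked by barcode suffixes 1 to 6, and no label ties a suffix to a mouse. The matrix was therefore treated as 1 pooled sample, IL33 and pcDNA were not compared, and no p-value was computed. The barcode counts of suffixes 1 to 6 (7907, 10217, 2879, 6389, 6701 and 6318) equal the cell numbers that the study lists per library. By these numbers suffixes 1 to 3 are pcDNA and 4 to 6 are IL33. This assignment was not used, and ranges over suffixes were taken without regard to group.

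Toll-like receptors are pattern receptors of innate immune cells that bind microbial or cellular lipids, proteins and nucleic acids. Those that read lipids and lipoproteins sit at the cell surface, where Cd14 hands ligand to them, and those that read RNA or DNA sit in endosomes and need Unc93b1 to travel there. Most of them signal through Myd88 to NF-kappaB and interferon regulatory factors, while Tlr3 uses the adaptor Ticam1. Microglia, the resident macrophages of the brain, are known to carry several of these receptors.

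After the study's filters 38751 of 40411 barcodes remained, with 95513956 UMIs, and 35642 of them passed the microglia-like gate (at least 3 of 6 microglial genes). Totals per suffix ran from 9745192 to 24393841 UMIs. Microglia-like cells were divided by marker genes into states with low, intermediate or high Apoe (the lipid carrier apolipoprotein E), high Ccl2 and Ccl12 (monocyte-attracting chemokines), an Lpl state (lipoprotein lipase), MHC class II, interferon and cycling states, and cells of low RNA content with Ddit4 (a stress-responsive gene). These states are ranges along marker genes and not types. For example, 2470 of 29529 cells in the Apoe groups lay at 0.4 to 0.6% Apoe, near the limit of 0.5%, and 262 cells had exactly the minimum of 3 interferon genes. The other gates gave monocyte-like, monocyte-derived dendritic-like, NK-like, granulocyte-like, plasmacytoid dendritic-like and choroid plexus-like cells, each with at most 2 UMIs of microglial genes (for plasmacytoid dendritic-like cells, Siglech apart). As a check of the microglia-like label by a gene that was not used to gate, Cx3cr1, the fractalkine receptor, without shared barcodes stood at 1857 CPM (UMIs per 1000000 UMIs of the group) in microglia-like and 144 CPM in monocyte-like cells. The limit on microglial UMIs in monocyte-like cells weakens this check, and it does not cover the single states. The study also named clusters of bone-marrow-derived macrophages, with high Apoe in 1 and low levels of microglial genes in another. No gate here separates such cells from microglia. The other lineages were checked only by genes of their own gates.

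Many barcodes were not particular to 1 library. Of 29579 distinct barcode sequences, 3890 occurred under more than 1 suffix, which concerned 14722 barcodes, and any pair of suffixes shared 509 to 3428 sequences. For the 490 sequences found under all 6 suffixes, suffix 2 held the most UMIs in 482, and the median share of the UMIs of a sequence ran from 7.36% in suffix 3 to 25.4% in suffix 2. Shared barcodes made up 98.7% of the low-RNA Ddit4 cells, 79.4% of the Apoe-high cells and 49.5% of the Lpl-state cells, but 8.80% of the Apoe-low and 4.70% of the monocyte-like cells. They held fewer UMIs, with a median of 967 against 3121 in microglia-like cells. What these barcodes represent was not tested. Results below are therefore given both without shared barcodes, which was decided on once the data had been looked at, and with all kept barcodes, and suffixes that share barcodes are not independent of each other.

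The members moved with this sharing. In microglia-like cells whose barcode was found under 1 suffix Tlr7 stood at 61.2 CPM, against 178 CPM in those found under 3 or more suffixes. Tlr2 stood at 151 and 312 CPM, Cd14 at 785 and 1192 CPM, and Unc93b1 at 1217 and 702 CPM. The differences were present at matched depth: among cells of 2000 UMIs or more, Tlr7 was at 60.9 against 131 CPM and Unc93b1 at 1208 against 762 CPM. Tlr2, Tlr7 and Cd14 were thus higher, and Unc93b1 lower, in cells with shared barcodes, while Myd88 was at 61.9 and 58.2 CPM over all depths. The cells were not matched for state. Apoe stood at 9702 CPM in cells found under 1 suffix and at 40793 CPM in those under 3 or more. The microglial gene P2ry12 stood at 4013 and 2226 CPM. How far the differences in members go with state was not tested.

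**Figure D1:**
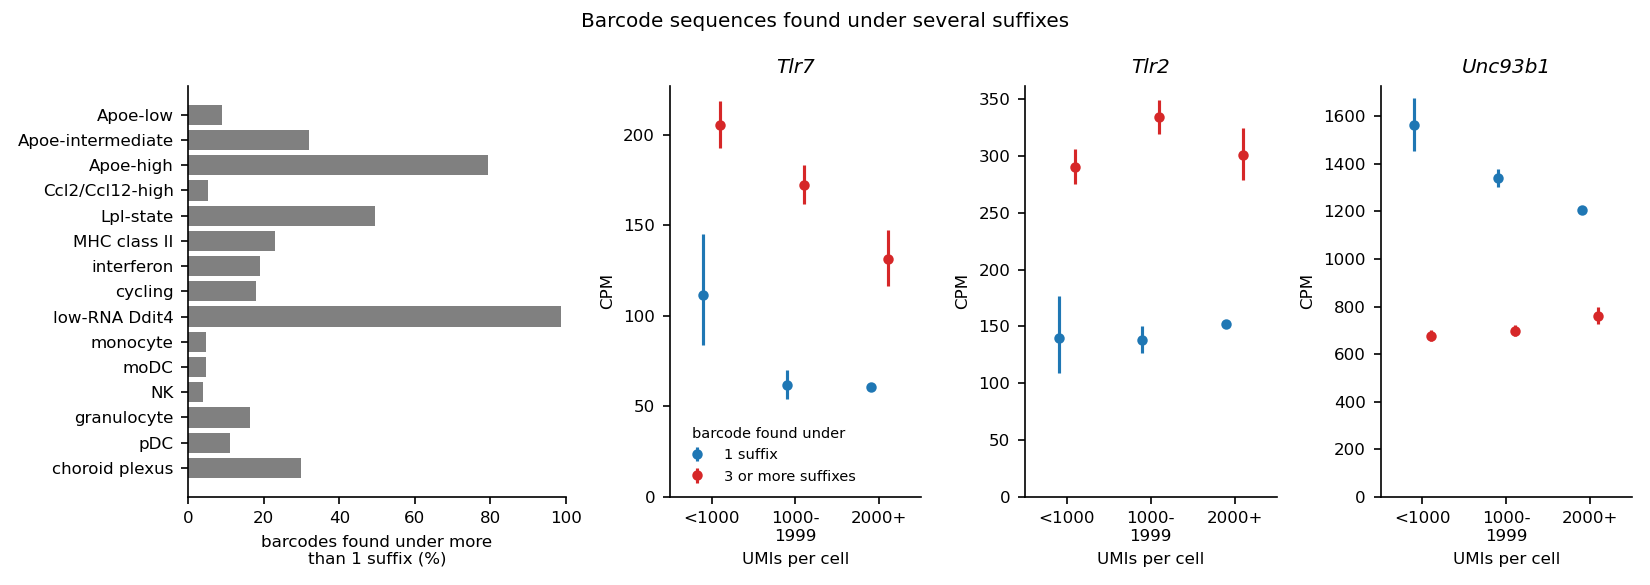
Left, the percentage of barcodes in each gated group whose sequence occurs under more than 1 suffix. Right, CPM of Tlr7, Tlr2 and Unc93b1 in microglia-like cells by UMIs per cell, for barcodes found under 1 suffix (blue) and under 3 or more (red), with exact Poisson 95% intervals. In each depth range Tlr7 and Tlr2 lay higher and Unc93b1 lower in the red points, for example 131 against 60.9 CPM of Tlr7 at 2000 UMIs or more.

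The promoters of Tlr2, Tlr3 and Myd88 are shown because, of the 6 members with an entry, these 3 held a match to an interferon-response-like motif, which was chosen after the sequences were seen. Each is the 250 bases before the gene start in RefSeq (GRCm38.p6), read 5′ to 3′ on the strand of the gene, which is the minus strand for all 3. Capitals mark matches to an interferon-response-like motif (AAANNGAAA, or TTTCNNTTT on the other strand) and, in Tlr3, also an NF-kappaB-like motif (GGNNTTTCC, or GGAAANNCC). The genes themselves run over chr3:83836272-83841767 (Tlr2), chr8:45395665-45411080 (Tlr3) and chr9:119335934-119341411 (Myd88) in GRCm38. The RefSeq starts of all 3 lie within the genes as GENCODE draws them, so that the stretches of Tlr3 and Myd88 are wholly, and that of Tlr2 partly, inside the annotated gene.
Tlr2 promoter, chr3:83841609-83841858: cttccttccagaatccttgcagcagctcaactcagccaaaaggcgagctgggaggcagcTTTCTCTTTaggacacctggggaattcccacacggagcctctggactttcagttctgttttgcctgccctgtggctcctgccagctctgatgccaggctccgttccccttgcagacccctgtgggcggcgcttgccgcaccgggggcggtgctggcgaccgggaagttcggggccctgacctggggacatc
Tlr3 promoter, chr8:45410381-45410630: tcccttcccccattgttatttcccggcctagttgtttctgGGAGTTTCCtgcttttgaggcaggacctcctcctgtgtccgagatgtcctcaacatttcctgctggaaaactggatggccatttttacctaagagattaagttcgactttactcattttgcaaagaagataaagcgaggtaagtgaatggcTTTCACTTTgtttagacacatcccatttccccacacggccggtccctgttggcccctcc
Myd88 promoter, chr9:119340019-119340268: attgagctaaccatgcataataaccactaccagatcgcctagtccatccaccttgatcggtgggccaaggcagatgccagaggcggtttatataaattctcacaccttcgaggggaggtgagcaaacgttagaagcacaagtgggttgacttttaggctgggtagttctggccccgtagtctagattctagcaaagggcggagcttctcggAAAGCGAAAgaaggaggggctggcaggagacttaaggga
The interferon-response-like letters began 191 bases before the start of Tlr2 (TTTCTCTTT), 59 bases before that of Tlr3 (TTTCACTTT) and 39 bases before that of Myd88 (AAAGCGAAA). The NF-kappaB-like letters of Tlr3 (GGAGTTTCC) began 210 bases before its start. Of 32851 promoters of the same length, 9.37% held the first motif and 4.93% the second, on either strand. Promoters of Tlr1, Tlr9 and Tlr13 held neither, but 1 of 2 entries for Tlr1 and the entries for Tlr9 and Tlr13 held GAGGAAG, the letters of a PU.1-like motif (CTTCCTC on the other strand), which 10.6% of all promoters held. A match is a description of letters and not of binding. Only these fixed patterns were searched, so that a site of another form, in Tlr2 or elsewhere, stays in lower case.

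Among the surface receptors, Tlr2, which pairs with Tlr1 or Tlr6 to bind lipoproteins, differed between microglia-like states. Without shared barcodes Tlr2 stood at 106 CPM (102 to 109) in Apoe-low cells, with the exact Poisson 95% interval of counting error in parentheses (lowest 99.5, median 107 and highest 116 CPM over 6 suffixes). It stood at 366 CPM (335 to 399) in the Lpl state (lowest 227, median 367 and highest 451 CPM over 6 suffixes). In Apoe-high cells it was at 277 CPM (263 to 291), with lowest 203, median 269 and highest 319 CPM over 6 suffixes. The ranges over suffixes of the Lpl-state and Apoe-high cells did not overlap that of the Apoe-low cells. Tlr2 was at 324 CPM (299.9 to 349) in interferon cells, with lowest 190, median 254 and highest 457 CPM over 5 suffixes. It was at 281 CPM (249.6 to 315) in cycling cells and at 257 CPM (244 to 269.6) in Ccl2/Ccl12-high cells. The ratios to Apoe-low cells, with intervals of counting error, were 3.46 (3.16 to 3.80) in the Lpl state, 3.06 (2.82 to 3.32) in interferon, 2.66 (2.35 to 2.99) in cycling, 2.62 (2.46 to 2.78) in Apoe-high and 2.43 (2.29 to 2.57) in Ccl2/Ccl12-high cells. Each of these comparisons had Tlr2 higher in all suffixes that held 20 cells or more, which were 6 of 6 suffixes for the Lpl, Apoe-high and Ccl2/Ccl12-high cells and 5 of 5 for the interferon and cycling cells. In MHC class II cells the ratio was 1.65 (1.47 to 1.85), under the limit of 2, and it was higher in 4 of 4 suffixes (1.19 to 2.26). With all barcodes the ratios were 3.53, 3.08, 2.77, 2.98, 2.41 and 1.83 in the same order.

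Apoe-intermediate cells lay between, with Tlr2 at 126 CPM (121 to 131), a ratio of 1.19 and a higher level in 6 of 6 suffixes. Thus Tlr2 and Apoe, which set the 3 groups, had the same order of groups, with and without shared barcodes. By depth and without shared barcodes, Tlr2 in Apoe-high cells was between 221 and 290.0 CPM over 5 ranges from 500 UMIs to 4000 UMIs or more per cell, and in Apoe-low cells between 90.1 and 118 CPM. The Apoe-high level was the higher in each range, and the intervals overlapped only at 500 to 1000 UMIs.

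Tlr1 and Tlr4, the receptor of lipopolysaccharide, showed less difference between states. Tlr1 stood at 20.8 CPM (19.3 to 22.3) in Apoe-low cells and at 33.9 CPM (26.4 to 42.7) in interferon cells, its highest microglia-like level, with a ratio of 1.63 (1.26 to 2.08) and higher levels in 5 of 5 suffixes (1.00 to 2.06). Its neighbours in order, Apoe-high at 26.7 CPM and Ccl2/Ccl12-high at 25.5 CPM, overlapped with it in their ranges over suffixes. Tlr4 was at 27.2 CPM (25.5 to 28.9) in Apoe-low cells (lowest 16.95, median 26.0 and highest 31.1 CPM over 6 suffixes) and lowest among the states in cycling cells at 14.4 CPM (8.08 to 23.8), from 15 UMIs. The cycling level was lower in 5 of 5 suffixes, but its ratio of 0.531 (0.296 to 0.8796) did not reach the limit of 0.5. Neither receptor differed from Apoe-low cells by 2-fold in any of the 7 other states without shared barcodes that could be compared.

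Cd14, which binds lipopolysaccharide and passes it to Tlr4, stood at 717 CPM (709 to 726) in Apoe-low cells (lowest 671, median 709 and highest 789 CPM over 6 suffixes). Without shared barcodes it stood at 1311 CPM (1252 to 1372) in Lpl-state cells (lowest 1136, median 1283 and highest 1621 CPM over 6 suffixes) and at 1036 CPM (1011 to 1062) in Ccl2/Ccl12-high cells (lowest 928, median 998 and highest 1170.3 CPM over 6 suffixes). Both ranges lay above that of the Apoe-low cells. The ratio in Lpl-state cells was 2.19 (2.11 to 2.27) with all barcodes and 1.83 (1.74 to 1.92) without shared barcodes, higher in 6 of 6 suffixes either way, so that the 2-fold limit was passed only with shared barcodes. The ratio was 1.48 and 1.35 in Apoe-high cells, again higher in 6 of 6 suffixes. In cycling cells Cd14 was at 655 CPM (607 to 706), with higher levels in 2 of 5 suffixes, and did not stand apart from Apoe-low cells.

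**Figure D2:**
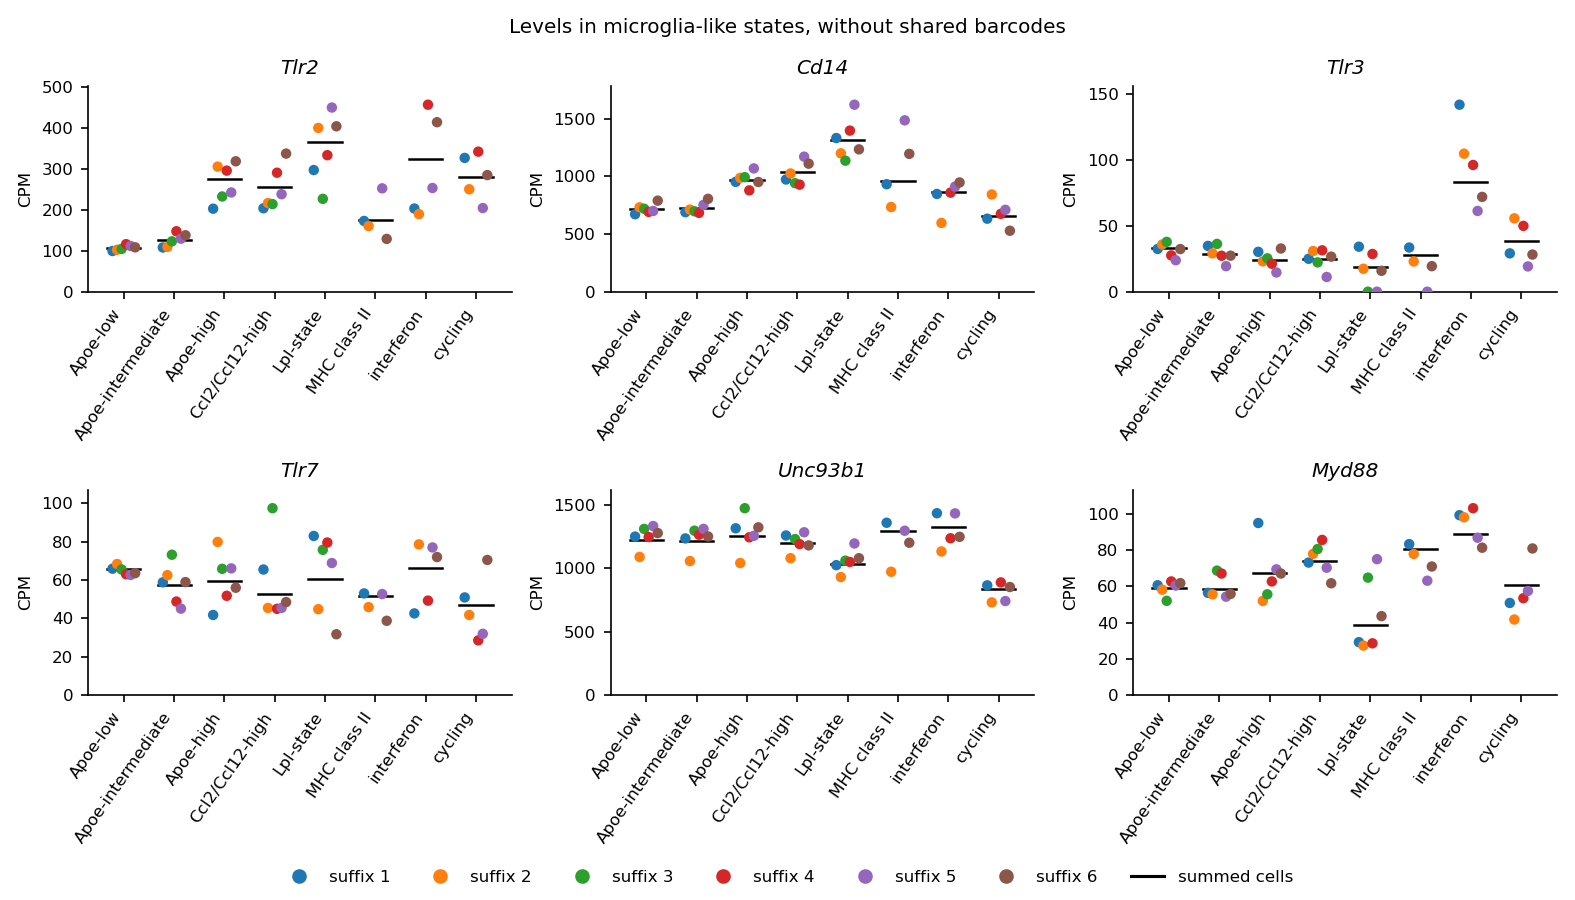
CPM of Tlr2, Cd14, Tlr3, Tlr7, Unc93b1 and Myd88 in 8 microglia-like states without shared barcodes. Each point is 1 barcode suffix with at least 20 cells of the state and each bar is the value over the summed cells. Tlr2 lay at 99.5 to 116 CPM in Apoe-low cells and at 203 CPM or more in every suffix of the Lpl, Apoe-high and Ccl2/Ccl12-high states, and Tlr3 stood out in interferon cells.

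Among the endosomal receptors, Tlr3, which binds double-stranded RNA, was highest in interferon cells. These cells were gated on 8 interferon-induced genes other than Tlr3, such as Isg15 and Ifit3. Tlr3 stood at 83.0 CPM (71.1 to 96.3) there (lowest 61.3, median 96.2 and highest 142 CPM over 5 suffixes) and at 32.8 CPM (31.0 to 34.7) in Apoe-low cells (lowest 23.9, median 32.4 and highest 37.8 CPM over 6 suffixes). These ranges did not overlap. The ratio was 2.53 (2.14 to 2.97), higher in 5 of 5 suffixes, and 2.78 with all barcodes. In the other 6 states compared without shared barcodes, Tlr3 lay between 18.9 CPM in Lpl-state and 38.5 CPM in cycling cells, and each of these levels overlapped its neighbours in the order within counting error. The intervals of Apoe-high (20.1 to 28.6 CPM), Ccl2/Ccl12-high (21.1 to 29.1) and Lpl-state cells (12.5 to 27.6) lay below that of Apoe-low cells. Those of Apoe-intermediate, MHC class II and cycling cells overlapped it. No other state passed 2-fold. The gene overlaps Gm45542 on the other strand, and the other 8 members besides Myd88 overlap no annotated gene.

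Tlr7, which binds single-stranded RNA, was higher in Apoe-high cells when all barcodes were used. It stood at 68.2 CPM (65.7 to 70.8) in Apoe-low, 119.8 CPM (114 to 126) in Apoe-high and 205 CPM (183 to 228) in low-RNA Ddit4 cells. The ratio in Apoe-high cells was 1.76 (1.65 to 1.87), higher in 6 of 6 suffixes, and that in low-RNA Ddit4 cells was 3.00 (2.67 to 3.37), higher in 6 of 6 suffixes. Without shared barcodes this pattern was not found. Tlr7 was then at 65.5 CPM (63.0 to 68.2) in Apoe-low and 59.5 CPM (53.1 to 66.4) in Apoe-high cells, with a ratio of 0.908 (0.805 to 1.02) and higher levels in 3 of 6 suffixes. Of the low-RNA Ddit4 cells 27 remained, with 4 UMIs of Tlr7, and they were not compared further. In the remaining states Tlr7 lay between 47.1 CPM in cycling and 66.3 CPM in interferon cells, with overlapping ranges over suffixes between all neighbours in the order. Counting intervals lay below that of Apoe-low cells in Apoe-intermediate (53.9 to 60.8 CPM) and Ccl2/Ccl12-high cells (47.1 to 58.6 CPM). They also did so, narrowly, in MHC class II (41.7 to 62.9 CPM) and cycling cells (34.9 to 62.3 CPM). Those of Lpl-state and interferon cells overlapped it.

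Tlr13, a mouse receptor of bacterial ribosomal RNA, differed by less than 2-fold between the states compared without shared barcodes. It stood at 65.0 CPM (62.4 to 67.6) in Apoe-low cells and, without shared barcodes, between 44.4 CPM in interferon and 67.4 CPM in cycling cells. The interferon level was lower than the Apoe-low level in 5 of 5 suffixes with a ratio of 0.682 (0.549 to 0.840). When all barcodes were kept, the low-RNA Ddit4 cells held 113 CPM, a ratio of 1.73. Tlr9, the receptor of unmethylated CpG DNA, was nearly undetected. Over all microglia-like cells 63 UMIs were counted without shared barcodes, which is 0.843 CPM (0.647 to 1.08), and no gated group with over 1 UMI exceeded 2.07 CPM. Tlr9 was below the 10 CPM needed for a comparison in every group, so that 9 of 10 members were compared.

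Unc93b1, the chaperone that carries Tlr3, Tlr7, Tlr9 and Tlr13 to endosomes, was detected in nearly all microglia-like cells without shared barcodes. With all UMIs, 94.5% of these cells held a UMI. The 11415 cells whose barcode was found under 3 or more suffixes held 8970 UMIs of Unc93b1, so that some of them held none. Without shared barcodes Unc93b1 stood at 1223 CPM (1211 to 1234) in Apoe-low cells (lowest 1089, median 1263 and highest 1333 CPM over 6 suffixes). In interferon cells it was at 1328 CPM (1279 to 1378), in Apoe-high cells at 1251 CPM (1221 to 1282) and in Ccl2/Ccl12-high cells at 1199.8 CPM (1173 to 1227), all with overlapping ranges over suffixes. Cycling cells stood below, at 835 CPM (781 to 893) (lowest 731, median 852 and highest 889 CPM over 5 suffixes), a ratio of 0.683 (0.638 to 0.731) and lower in 5 of 5 suffixes. The range over suffixes in cycling cells did not overlap that in Apoe-low cells. Lpl-state cells were at 1035 CPM (983 to 1089), lower in 6 of 6 suffixes with a ratio of 0.846 (0.803 to 0.891). Shared barcodes included, the ratios were 0.672 in cycling and 0.735 in Lpl-state cells. With all barcodes the Apoe-high level was 944 CPM, lower than Apoe-low in 6 of 6 suffixes (ratio 0.777), and the low-RNA Ddit4 level was 647 CPM. The Apoe-high difference was not found without shared barcodes, where the ratio was 1.02 and higher in 3 of 6 suffixes.

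Myd88, the adaptor next to the receptors, stood at 59.2 CPM (56.7 to 61.7) in Apoe-low cells (lowest 52.1, median 60.6 and highest 62.8 CPM over 6 suffixes). It was at 89.2 CPM (76.9 to 103) in interferon cells (lowest 81.4, median 98.2 and highest 103 CPM over 5 suffixes) and at 80.4 CPM (68.1 to 94.4) in MHC class II cells (lowest 63.2, median 74.5 and highest 83.4 CPM over 4 suffixes). Both ranges lay above that of the Apoe-low cells, but only narrowly in MHC class II cells (63.2 against 62.8 CPM). The ratios were 1.51 (1.29 to 1.75) and 1.36 (1.14 to 1.604), and neither passed 2-fold. Counting all barcodes, the ratios were 1.47 and 1.33. In Lpl-state cells Myd88 was at 38.6 CPM (29.1 to 50.2), with a ratio of 0.652 (0.490 to 0.852) but a lower level in only 4 of 6 suffixes (ratio 0.698 with all barcodes). Tlr2 had its highest pooled level in these cells, but its interval and range over suffixes overlapped those of interferon cells. Slc22a14 on the same strand and Acaa1a on the other overlap Myd88, so that reads of the first and of Myd88 may not be told apart where they overlap.

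The members that passed 2-fold were counted beside the share of all genes that did. In Apoe-high cells 1 of 9 members compared (Tlr2) was higher, against 2.60% of all genes compared (2.30% without shared barcodes), and 0 were lower, against 1.43% (1.12%). In Ccl2/Ccl12-high cells 1 was higher (Tlr2), against 1.75% (1.71%), and 0 lower, against 0.356% (0.383%). In Lpl-state cells 2 were higher with all barcodes (Tlr2 and Cd14) and 1 without shared barcodes (Tlr2), against 4.62% (4.34%), and 0 were lower, against 2.81% (2.82%). These single genes are described by their own values, since 1 of 9 is a count and not a test of the list. In MHC class II cells no member passed in either direction, while 2.19% (2.01%) of genes were higher and 1.19% (1.43%) lower. Of these cells 335 of 571 (302 of 440 without shared barcodes) came from 1 suffix. With all barcodes Tlr2 passed at 2.08 when suffix 1 was left out, and it also passed with the mean over suffixes. In interferon cells 2 were higher (Tlr2 and Tlr3), against 4.69% (4.74%), and 0 lower, against 1.70% (1.99%). In cycling cells 1 was higher (Tlr2), against 15.5% (15.5%), which is near the background, and 0 lower, against 3.36% (3.57%). In low-RNA Ddit4 cells, with all barcodes only, 2 were higher (Tlr2 and Tlr7), against 5.02%, and 1 lower (Tlr1), against 5.03%. The median ratio of the 9 members without shared barcodes ran from 0.851 in Lpl-state to 1.201 in interferon cells, beside 0.968 and 0.936 for all genes compared.

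**Figure D3:**
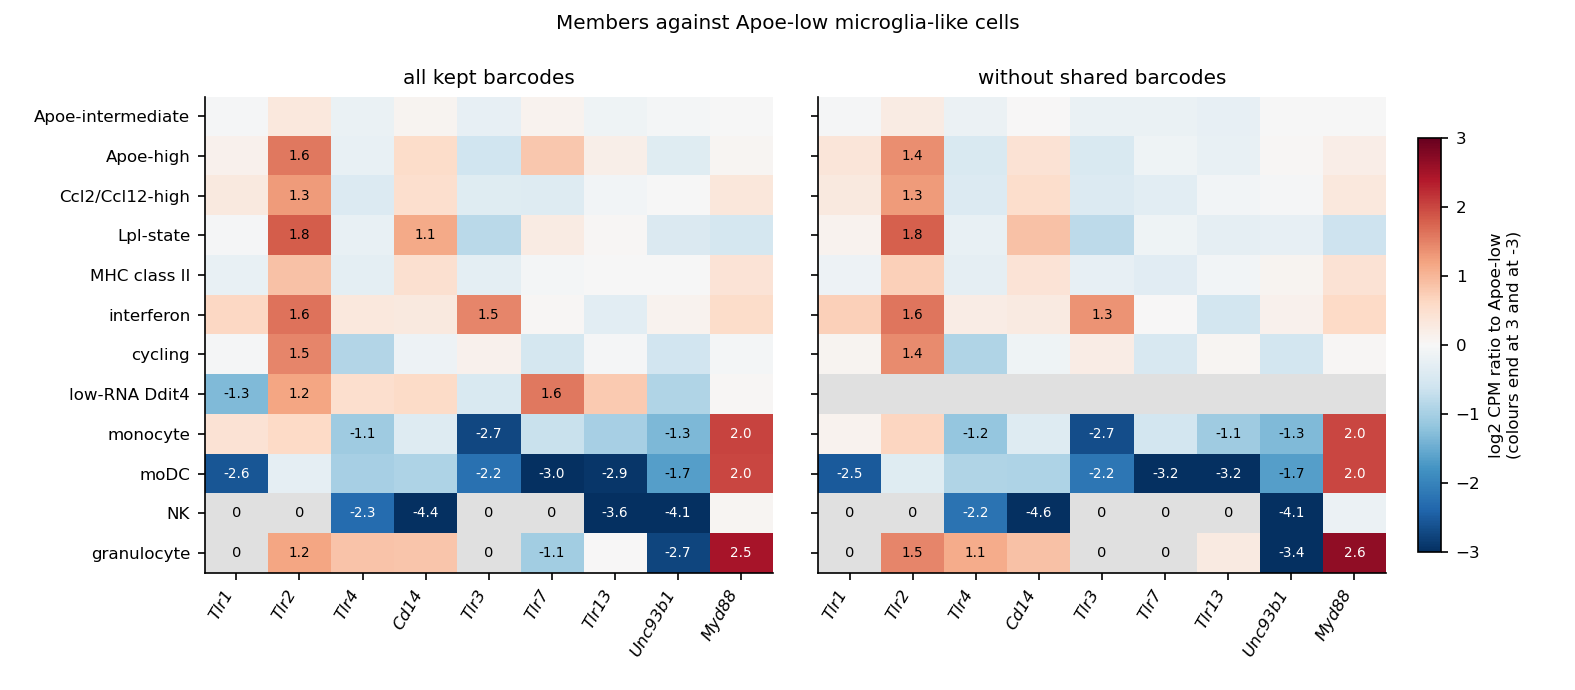
Ratio of CPM in each gated group to that in Apoe-low microglia-like cells on the log2 scale, for 9 members (Tlr9 was under 10 CPM in both groups of every comparison), with all kept barcodes (left) and without shared barcodes (right). Numbers are log2 ratios past 2-fold, grey cells with 0 had no UMI, and the grey row had too few cells. Tlr2 was red in the Lpl, interferon, cycling, Apoe-high and Ccl2/Ccl12-high states in both panels, while Tlr7 in Apoe-high cells (ratio 1.76 on the left, 0.908 on the right) and Cd14 in Lpl-state cells faded.

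Monocyte-like and monocyte-derived dendritic-like cells differed from Apoe-low cells by 2-fold in Myd88, which was higher, and in Unc93b1 and Tlr3, which were lower. Values in this and the following lineages are without shared barcodes unless given for all. The plasmacytoid dendritic-like (16 cells without shared barcodes) and granulocyte-like (46 cells) groups were small, and the monocyte-like (142) and monocyte-derived dendritic-like (105) cells had 20 or more cells in 2 suffixes. Myd88 stood at 237 CPM (199 to 280.2) in monocyte-like cells, with 237 and 251 CPM in the 2 suffixes, and at 238 CPM (199 to 283) in monocyte-derived dendritic-like cells, with 241 and 262 CPM. These values lay above those of Apoe-low cells in every suffix, with ratios of 4.005 (3.35 to 4.76) and 4.03 (3.35 to 4.81). In granulocyte-like cells Myd88 was at 371 CPM (224 to 579.8) from 19 UMIs, a ratio of 6.27 (3.77 to 9.82). The ratios with all barcodes were 4.08, 4.0 and 5.55.

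Unc93b1 went the other way. It stood at 486 CPM (431 to 546) in monocyte-like and 386 CPM (336 to 441) in monocyte-derived dendritic-like cells, ratios of 0.398 (0.352 to 0.447) and 0.316 (0.274 to 0.361) to Apoe-low cells, and was lower in 2 of 2 suffixes in both. In plasmacytoid dendritic-like cells, known for endosomal receptors, it was at 1013 CPM (782 to 1292) from 65 UMIs, and its interval held the Apoe-low level. In granulocyte-like cells it was at 117 CPM (43.0 to 255) from 6 UMIs. Using all barcodes, the levels of Unc93b1 were 479, 386, 954 and 181 CPM in the same order of groups.

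The endosomal receptors were scarce in monocyte-derived dendritic-like cells. Tlr7 was at 7.28 CPM (1.98 to 18.6) there, from 4 UMIs, a ratio of 0.111 (0.0302 to 0.285), and Tlr13 was at 7.28 CPM (1.98 to 18.6), a ratio of 0.112 (0.0305 to 0.287). Monocyte-like cells kept more of both, with Tlr7 at 44.98 CPM (29.4 to 65.9) and Tlr13 at 31.1 CPM (18.5 to 49.2). The intervals of the monocyte-like and monocyte-derived dendritic-like levels did not overlap for Tlr7 and overlapped narrowly for Tlr13. Tlr3 had 3 UMIs in monocyte-like cells, a ratio of 0.158 (0.0326 to 0.463), and 4 UMIs in monocyte-derived dendritic-like cells, a ratio of 0.222 (0.0603 to 0.569). Plasmacytoid dendritic-like cells held 5 UMIs of Tlr7, which is 78.0 CPM (25.3 to 182), and 0 UMIs of Tlr9. For Tlr9 the floor of 3 UMIs would be 46.8 CPM, and the exact interval ends at 57.5 CPM. A Tlr9 level under these limits could have been missed at this depth. With all barcodes the ratios in monocyte-derived dendritic-like cells were 0.127 for Tlr7, 0.133 for Tlr13 and 0.212 for Tlr3, and in monocyte-like cells they were 0.627, 0.505 and 0.151.

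Of the surface receptors, Tlr2 was at 164 CPM (133 to 201) in monocyte-like and 81.9 CPM (59.7 to 109.6) in monocyte-derived dendritic-like cells, ratios of 1.55 and 0.775, neither past 2-fold. The 15 UMIs in granulocyte-like cells gave 293 CPM (164 to 483), a ratio of 2.77 (1.55 to 4.58), with an interval that overlaps those of the Lpl, interferon, cycling, Apoe-high and Ccl2/Ccl12-high states. Tlr4 was at 12.1 CPM (4.87 to 24.95) in monocyte-like cells from 7 UMIs (ratio 0.445 (0.179 to 0.921), a call that was lost with all barcodes when suffix 2 or 5 was left out), and its 3 UMIs in granulocyte-like cells gave a ratio of 2.16 (0.444 to 6.32). Tlr1 had 2 UMIs in monocyte-derived dendritic-like cells, a ratio of 0.175 (0.0212 to 0.635). Cd14 was at 548 CPM (489.7 to 612) in monocyte-like, 379 CPM (329 to 434) in monocyte-derived dendritic-like and 1309 CPM (1015 to 1663) in granulocyte-like cells. Its ratios of 0.764, 0.528 and 1.82 stayed within 2-fold. When all barcodes were kept, the ratios in monocyte-like, monocyte-derived dendritic-like and granulocyte-like cells were 1.51, 0.835 and 2.29 for Tlr2 and 0.759, 0.527 and 1.77 for Cd14.

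**Figure D4:**
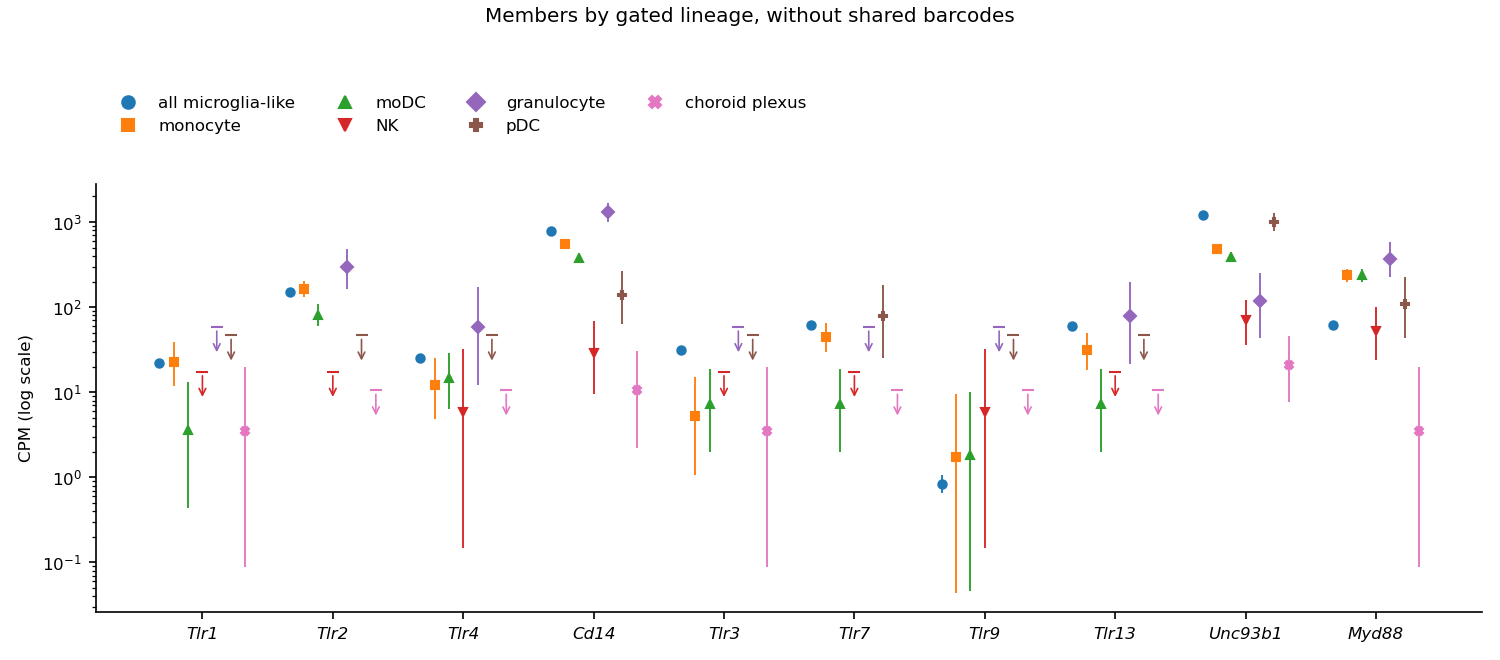
CPM (log scale) of the 10 members in all microglia-like cells and 6 other gated lineages without shared barcodes (moDC, monocyte-derived dendritic-like; pDC, plasmacytoid dendritic-like). Lines are exact Poisson 95% intervals, and a bar with an arrow marks the level that 3 UMIs would give where 0 were counted. Myd88 lay higher in monocyte-like cells (237 CPM) than in microglia-like cells (61.9 CPM) and Unc93b1 lower (486 against 1217 CPM), while most receptors were at or near 0 in NK-like and choroid plexus-like cells.

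NK-like cells and choroid plexus-like cells, which are epithelial and not immune, served as groups in which free RNA could give counts. Both gates left out cells with more than 2 UMIs of microglial genes, so a low background in them was partly set by the gate. With no such limit the Tlr2 ratio in NK-like cells reversed, as given below. In NK-like cells Tlr2 had 0 UMIs, with an exact interval of 0 to 21.5 CPM. A floor of 3 UMIs over the group would be 6.05-fold lower than the Apoe-low level. This floor lies under the end of that interval, so that 6.05 is not a lower bound on the fold. Cd14 was at 29.1 CPM (9.45 to 67.9) in NK-like cells. Unc93b1 was at 69.9 CPM (36.1 to 122) there and Myd88 at 52.4 CPM (24.0 to 99.5). The microglial genes C1qa, C1qb and C1qc, as tracers of microglial RNA, stood in NK-like cells at 2.19% of their microglia-like level, at which microglial RNA alone would give 26.6 CPM of Unc93b1 and 1.35 CPM of Myd88. The intervals of Unc93b1 and of Myd88 in NK-like cells thus lay above these levels, and Tlr2, Tlr7 and Tlr13 had no UMI. In choroid plexus-like cells the tracers stood at 2.47% and Unc93b1 at 21.2 CPM (7.77 to 46.1), with 30.1 CPM from tracers. In monocyte-like cells the tracers would give 3.30 CPM of Tlr2 and 26.5 CPM of Unc93b1, far below the values found. In granulocyte-like cells the tracers stood at 10.2%, which would give 124 CPM of Unc93b1. The interval of its 117 CPM (43.0 to 255), from 6 UMIs, held that level, and whether these counts are background was not tested. Tlr2, Cd14 and Myd88 lay above the levels that the tracers would give for them.

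By the 2-fold counts, monocyte-like cells had 1 member higher (Myd88), against 19.8% of all genes (20.5% without shared barcodes), and 3 lower (Tlr3, Tlr4 and Unc93b1), to which Tlr13 was added without shared barcodes, against 24.9% (24.5%). Monocyte-derived dendritic-like cells had 1 higher (Myd88), against 21.0% (21.0%), and 5 lower (Tlr1, Tlr3, Tlr7, Tlr13 and Unc93b1), against 24.4% (24.3%). NK-like cells had 0 higher, against 28.6% (28.8%), and 6 lower (Tlr2, Tlr4, Tlr7, Tlr13, Cd14 and Unc93b1), against 18.7% (18.6%). The Tlr4 call in NK-like cells rested on 1 UMI. With all barcodes this gave 5.57 CPM (0.141 to 31.0), and the interval held the Apoe-low level of 27.4 CPM. The same was so without shared barcodes (5.82 CPM, 0.147 to 32.4, against 27.2 CPM). In these lineages a large share of all genes passed the limit, so that a single member past it is not set apart from the background, and the counts of 5 and 6 of 9 lower were not tested. Granulocyte-like cells had 2 higher (Tlr2 and Myd88), to which Tlr4 was added without shared barcodes, against 21.0% (20.6%). They had 2 lower (Tlr7 and Unc93b1, with Unc93b1 alone without shared barcodes), against 15.9% (14.6%). Tlr7 had 2 UMIs there with all barcodes, 32.9 CPM (3.98 to 119), and the interval held the Apoe-low level of 68.2 CPM. Without shared barcodes it had 0 UMIs, and the floor of 3 UMIs, 58.6 CPM, was too high for a call.

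The share of cells with a UMI with each cell thinned to 500 UMIs compares cells at 1 depth. The shares below are without shared barcodes, with exact binomial 95% intervals of counting error, and median depths before thinning were 2902 UMIs in Apoe-low, 3736 in Lpl-state, 4008 in interferon, 4232 in monocyte-like, 1618 in NK-like and 1082 in choroid plexus-like cells. Tlr2 was found in 4.97% (4.599 to 5.36) of Apoe-low and 15.8% (12.2 to 20.02) of Lpl-state cells. Beside these stood 0 of 122 cells in the choroid plexus-like group, where a floor of 3 cells would be 2.46%, which is not a binomial limit. The gates of the choroid plexus-like and NK-like groups left out cells with more than 2 microglial UMIs, which lowers such shares. Tlr3 was found in 1.61% (1.39 to 1.84) of Apoe-low and 3.95% (2.43 to 6.04) of interferon cells. Unthinned, the shares were 24.7% and 57.5% for Tlr2, and 9.23% and 24.5% for Tlr3. The intervals of the thinned shares did not overlap for either receptor. Shared barcodes included, the thinned shares were 5.20% and 16.5% for Tlr2, and 1.69% and 4.32% for Tlr3. Myd88 was found in 2.92% (2.63 to 3.23) of Apoe-low, 9.86% (5.50 to 15.99) of monocyte-like and 12.4% (6.76 to 20.2) of monocyte-derived dendritic-like cells, with 3.12% (0.649 to 8.86) in NK-like cells (unthinned 16.2%, 49.3%, 71.4% and 9.38%). Unc93b1 was found in 45.8% (44.9 to 46.7) of Apoe-low and 18.3% (12.3 to 25.7) of monocyte-like cells, with 7.29% (2.98 to 14.4) in NK-like cells (unthinned 94.0%, 77.5% and 11.5%). Cd14 was found in 28.6% (27.8 to 29.4) of Apoe-low and 44.4% (39.2 to 49.7) of Lpl-state cells, with 0.820% (0.0208 to 4.48) in choroid plexus-like cells (unthinned 78.9%, 93.3% and 1.64%). With all barcodes the thinned shares in Apoe-low and monocyte-like cells were 3.27% and 12.1% for Myd88 and 45.2% and 16.8% for Unc93b1.

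Pairs of members within single Apoe-low cells were also read. Each cell was thinned to 1000 UMIs, and the share of cells with a UMI of 1 member was compared between cells with and without another, which gives 72 ordered pairs of 9 members. With all barcodes 70 of the 72 ratios of shares lay within 1.5-fold of 1, and the other 2 were the 2 directions of the pair of Tlr1 and Tlr3, at 0.568 for Tlr3 in 258 cells with Tlr1. Without shared barcodes the same pair alone lay outside, at 0.478 for Tlr3 in 244 cells. In Apoe-high cells 6 of the 72 ratios lay outside 1.5-fold with all barcodes and 18 without shared barcodes, where fewer cells remained. In such sparse counts these ratios are a description only.

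Other genes of the pathway were read from a list of 42 (receptors, co-receptors, chaperones, adaptors, kinases, inhibitors, transcription factors and cytokine targets), which was chosen with earlier results of these data known, and whose counts stand beside the same background percentages as those of the members. Without shared barcodes 4 of 32 genes compared were higher in Apoe-high, 4 of 30 in Ccl2/Ccl12-high, 5 of 32 in Lpl-state, 6 of 32 in MHC class II, 5 of 33 in interferon and 4 of 30 in cycling cells. The shares of all genes compared that were higher were 2.30%, 1.71%, 4.34%, 2.01%, 4.74% and 15.5% in the same order, so that the count in cycling cells was not above its background. Tlr12 in Lpl-state cells was the 1 gene lower in these 6 states. Irf7, Il1b, Tnf, Cxcl10 and Ifnb1 made up the higher genes, apart from Cd180 in MHC class II cells. Il1b, a cytokine made after Toll-like receptor signalling, had a ratio of 5.47 in Apoe-high and 5.86 in Ccl2/Ccl12-high cells, higher in 6 of 6 suffixes in both. Tnf, another such cytokine, had a ratio of 2.83 in Lpl-state cells. The chemokine Cxcl10 and the transcription factor Irf7, both induced by interferon, had ratios of 20.6 and 70.1 in interferon cells, whose gate used other interferon-induced genes. The median ratio over the list ran from 0.938 in Apoe-high to 1.08 in Lpl-state cells, beside 0.924 and 0.968 for all genes compared.

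In monocyte-like cells without shared barcodes 7 of 33 genes of the list were higher and 8 lower, and in monocyte-derived dendritic-like cells 6 of 32 were higher and 9 lower, near the background. Cd180, a Toll-like receptor relative, and its partner Ly86 were lower in both. In monocyte-like cells Cd180 stood at 15.6 CPM against 84.3 CPM in Apoe-low cells, and in monocyte-derived dendritic-like cells Ly86 stood at 338 against 1739 CPM. The inhibitory kinase relative Irak3 was at 23.7 CPM in monocyte-derived dendritic-like and 1.52 CPM in Apoe-low cells. In NK-like cells 4 of 33 were higher, against 28.8% of all genes compared, and 14 lower, against 18.6%. In granulocyte-like cells 8 of 33 were higher, against 20.6%, and 10 lower, against 14.6%. With all barcodes low-RNA Ddit4 cells had 3 of 31 higher, against 5.02%, and 6 lower, against 5.03%. These counts were not tested. Of the other receptors, Tlr12 stood at 15.6 CPM (14.4 to 16.9), Tlr6 at 9.70 CPM (8.73 to 10.8) and Tlr5 at 3.23 CPM (2.68 to 3.85) in Apoe-low cells. Without shared barcodes Tlr8 had 0 UMIs in all microglia-like cells and 3 in monocyte-like cells, and Tlr11 had 3 UMIs in Apoe-low cells. Ly96, the partner of Tlr4, was at 41.2 CPM (39.1 to 43.3) in Apoe-low and 58.8 CPM (40.7 to 82.2) in monocyte-like cells.

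The genes most like each member were ranked by Pearson correlation of log2(CPM + 10) over the 15 gated groups, among 6030 genes at 50 CPM or more in at least 1 group. The groups share libraries and depth, so that these are descriptions. For Tlr2 they included Cd300c2 and Hebp1 (r = 0.959 and 0.952), and both also ranked among the 3 highest over 14 groups without shared barcodes. For Tlr3 they were Nectin4, B4galt4 and Tor1aip2 (r = 0.982, 0.958 and 0.944), and for Cd14 they were Anxa3, Hebp1 and Nlrp3 (r = 0.958, 0.958 and 0.958). For Unc93b1 they were Lims1, Slc29a3 and Ppfia4 (r = 0.979, 0.978 and 0.970), and for Myd88 they were Ncf4, Brk1 and Cpne3 (r = 0.942, 0.936 and 0.924). For Tlr13 they were Gcnt1, Dusp1 and Mtus1 (r = 0.968, 0.966 and 0.959), and for Tlr7 they were 1700017B05Rik, Ncf1 and Gnaq (r = 0.940, 0.940 and 0.928). Of the 21 genes ranked for these 7 members 10 stayed among the 3 most alike without shared barcodes, and none did for Tlr7. Tlr1, Tlr4 and Tlr9 were below 50 CPM in every group with all barcodes.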

How the data were processed

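The series holds 6 libraries of CD45+ cells, 3 from mice with IL-33-expressing and 3 from mice with control U87 tumors. Per the submitters' processing notes Cell Ranger 3.1 and Seurat 3.1.5 were used with the genome mm10. The deposited matrix made by the authors holds raw counts of UMIs per gene and barcode, whole numbers that are neither normalized nor corrected for batch. The number of per-sample columns that went unused was 0. The members and lists were chosen with earlier results of these data known.

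The study's filters were applied (genes in over 3 barcodes, more than 200 but not above 2500 genes per barcode, mitochondrial counts below 5%). Doublets were limited by the upper limit on genes and by setting aside cells that passed gates of 2 lineages, and no doublet caller was run. Gates counted marker genes with a UMI: at least 3 of the list for microglia-like, NK-like, plasmacytoid dendritic-like and choroid plexus-like cells and for the cycling, interferon and MHC class II states, and at least 2 for monocyte-like, monocyte-derived dendritic-like and granulocyte-like cells and the Lpl state. Apoe made up under 0.5% of UMIs in Apoe-low and at least 2% in Apoe-high cells, Ccl2 with Ccl12 at least 1%, and low-RNA Ddit4 cells held under 1000 UMIs. Because plasmacytoid dendritic cells can also carry Plac8, Ccr2 and Flt3 of the monocyte and dendritic lists, cells that passed the plasmacytoid gate and another myeloid gate went to the former. Cells that passed the dendritic and monocyte gates went to the dendritic gate, since monocyte genes also mark dendritic cells. Both rules depart from setting such cells aside and were made after the data were seen. The gate for border-associated macrophages left 17 cells and was not analysed, and 9, 3 and 1 kept cells had 2 or more T, B or mast cell genes.

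Levels are CPM, computed here as UMIs of the gene per 1000000 UMIs of the group, with exact Poisson 95% intervals. CPM were not compared between genes. Ratios of CPM have exact conditional 95% intervals. A gene was called at a ratio of 2 or more or 0.5 or less to Apoe-low cells if it had 10 CPM or more in either group, in groups of at least 30 cells. For calls, a count of 0 was set to a floor of 3 counts, which lies under the upper end of its exact interval. Intervals and floors cover counting error only. Ranges over suffixes use suffixes with at least 20 cells. Depth ran from 9745192 to 24393841 UMIs per suffix and from 1523 to 3484 UMIs per median kept cell. Named genes were the members, up to 3 pathway genes past 2-fold in each direction that kept it in every such suffix, the 3 genes most like each member, and the other receptors with Ly96, Cd180 and Ly86, of which the text gives a selection, and 1 gene is not reported here. Promoters are from RefSeq (GRCm38.p6, 6 of 10 members matched by symbol) and overlaps from the GENCODE annotation of GRCm38. The motifs were chosen after the sequences were seen. Python 3.11.15, numpy 2.4.6, scipy 1.17.1, pandas 2.3.3 and matplotlib 3.10.9 were used. Calls and intervals were tested on simulated data (2706 genes, 200 of them changed 4-fold). In the simulated Apoe-high comparison 100% of the changed genes were called and 95.9% of intervals held the true level. The counts were drawn from the Poisson model that the intervals assume, so this coverage follows from the model. Changes were planted only in genes at 50 CPM or more. Calls at 2-fold or at lower counts and the spread between libraries were not simulated.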

Additional observations from a re-analysis of the deposited data

Results flagged for a closer look

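Over the 6 suffixes, 1 library stood apart for Unc93b1. In microglia-like cells without shared barcodes, Unc93b1 in suffix 2 was at 1070.5 CPM (19480 UMIs), while the nearest of the other suffixes was at 1232 and the highest at 1305 CPM. The gap of suffix 2 to its nearest neighbour was 0.690 of the whole range, past the critical value of Dixon's test for 6 values at the 95% level. Of 20 values checked (10 members, with and without shared barcodes) this was the 1 past it, and chance gives about 1 in 20. Counting all barcodes, the gap was 0.497 of the range. The suffixes mix both groups of mice and are no replicates of 1 group.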

How the results depend on the processing

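No paired analysis was possible because the suffixes carry no replicate numbers and the groups of cells were compared without a test. Each setting was compared with all kept barcodes. The share of all genes past 2-fold was taken only with all barcodes and without shared barcodes. Counts under the other settings, and with 1 suffix left out, have no such share beside them and are descriptions only. Without shared barcodes, members higher in Lpl-state cells came to 1 and lower in granulocyte-like cells to 1, and 10 of 21 most alike genes were kept. With stricter gates, members lower came to 2 in Lpl-state and 1 in cycling cells, members in low-RNA Ddit4 cells to 1 higher and 0 lower, and pathway genes lower to 3 in Lpl-state, 1 in MHC class II and 2 in cycling cells. With no limit on microglial UMIs, granulocyte-like cells had 1 member higher and 0 lower, pathway genes lower were 4 in NK-like and 3 in granulocyte-like cells, and the Tlr2 ratio in NK-like cells reversed to 1.06. With the mean over suffixes, 1 member was higher (Tlr2) and 1 pathway gene lower in MHC class II cells, and 1 pathway gene was lower in cycling cells. With the mean over cells, 1 member was lower in cycling cells, granulocyte-like cells had 4 members higher and 1 lower and 11 pathway genes higher, and pathway genes lower were 2 in Apoe-high and 1 in MHC class II cells. With CPM outside mitochondrial, ribosomal protein and gate genes, 55.3% of 150 levels lay within the intervals of the values reported, granulocyte-like cells had 4 members higher and 1 lower, and 1 pathway gene was lower in Apoe-high and 1 in cycling cells. With no filter on low values, Tlr9 brought members higher to 1 in MHC class II, 2 in monocyte-like, 2 in monocyte-derived dendritic-like and 1 in NK-like cells. Pathway genes higher and lower then came to 5 and 2 in Apoe-high, 7 and 1 in Ccl2/Ccl12-high, 8 and 2 in Lpl-state and 8 and 1 in interferon cells, with 1 lower in MHC class II and 1 in cycling cells. The Tlr9 calls rested on 1 UMI each in monocyte-like, monocyte-derived dendritic-like and NK-like cells and 3 UMIs in MHC class II cells. Each of their intervals held the Apoe-low level of 0.659 CPM. The median share of cells over members and states was 3.32% thinned to 500 UMIs, 5.86% thinned to 1000 UMIs and 15.9% with all UMIs.

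Leaving out 1 suffix at a time, members lower ranged from 0 to 1 in Lpl-state and in cycling cells (1 without suffix 4), from 3 to 6 in NK-like cells (3 without suffix 6, where Tlr4, Tlr7 and Tlr13 were no longer called), from 1 to 2 in granulocyte-like cells (1 without suffix 2, 3 or 6), from 2 to 3 in monocyte-like cells (2 without suffix 5) and from 5 to 6 in monocyte-derived dendritic-like cells (6, with Tlr4, without suffix 4 or 6). Members higher ranged from 0 to 1 in MHC class II cells (Tlr2 at 2.08 without suffix 1) and from 2 to 3 in granulocyte-like cells (Tlr4 added at 2.902 without suffix 2), and pathway genes lower from 0 to 1 in MHC class II cells (1 without suffix 3) and from 0 to 2 in cycling cells (2 without suffix 4). Tlr2 in granulocyte-like cells ranged from 1.54 to 2.502 (not called without suffix 6) and Myd88 from 4.19 to 6.87. Tlr4 in monocyte-like cells ranged from 0.319 (without suffix 6) to 0.551 (without suffix 2), and its call was lost without suffix 2 or 5. Tlr3 in monocyte-derived dendritic-like cells ranged from 0.0791 (without suffix 4) to 0.295, and Tlr7 in granulocyte-like cells from 0.256 (without suffix 1) to 0.749 (without suffix 2). Without suffix 2 Unc93b1 in granulocyte-like cells was at 0.0986, and without suffix 6 Unc93b1 and Cd14 in NK-like cells were at 0.0969 and 0.0163. The calls of Tlr2 in the Apoe-high, Ccl2/Ccl12-high, Lpl-state, interferon and cycling cells, of Tlr3 in interferon cells and of Myd88 in monocyte-like and monocyte-derived dendritic-like cells held under each of these. The cause of these changes was not tested. Low-RNA Ddit4 cells were not compared without shared barcodes (27 cells) or at 1000 UMIs or more. Over all microglia-like cells Tlr9 was low, at 0.843 CPM (0.647 to 1.08) without shared barcodes, and it fell under the 10 CPM filter. Depth limits Tlr9 in the small lineages and all receptors in the granulocyte-like and plasmacytoid dendritic-like cells.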
